A study of Rattus norvegicus with 6 samples.

Results

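The expression of 10 channel genes that sense extracellular ATP, protons or mechanical force was examined in neurons that spontaneously hypertensive rats (SHRs) carry in their L1-L2 dorsal root ganglia (DRGs). The genes were taken by name from a table of 25689 genes and comprised the P2X receptor genes P2rx2, P2rx3, P2rx4, P2rx5 and P2rx6, the acid-sensing ion channel genes Asic1, Asic2 and Asic3, and the stretch-activated channel genes Piezo1 and Piezo2. All 10 were found in the table, and all 10 passed the filter on low counts that left 14919 genes for testing. SHRs had either the fat around the kidney removed surgically (perirenal adipose tissue ablation, PRATA) or a sham operation, with 3 samples per group, and the ganglia were taken 4 weeks after surgery. All 6 samples shared the SHR strain, a wild-type genotype and an age label of 6 to 8 weeks, an age below that given in the study's methods for the rats it purchased. After digestion with collagenase and trypsin, neurons were separated from glia by their slower adhesion to the dish. Sequencing in both groups was of stranded total RNA libraries depleted of ribosomal RNA. Nothing in the sources used here says how many rats gave each sample, so the tests measure the spread between these samples.

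P2X receptors are cation channels that open when ATP released by damaged, stretched or active cells binds to them, and P2X3, alone or together with P2X2, is the form best known from small-diameter sensory neurons. Acid-sensing ion channels (ASICs) open when the extracellular pH falls, as it does in ischaemic or inflamed tissue, and ASIC3 is the subunit most associated with muscle and visceral afferents. Piezo channels open when the membrane is stretched. Piezo2 is the main touch and proprioception channel of sensory neurons, and Piezo1 is best known from endothelial cells, red blood cells and other tissues under flow or pressure.

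Levels are given as read counts scaled to a common library size (TMM-normalized CPM). Total counts lay between 5892967 and 15226952 per sample, so that 3 reads corresponded to between 0.207 and 0.468 CPM, a floor for counting error only. Sham replicate 2 had the fewest reads. PRATA replicate 3 and sham replicate 1 stood apart from the other 4 samples in the reads of the 7SL RNA, an abundant small RNA with several gene copies: the second copy held 1.10% and 0.498% of the reads on the main pair of copies in these 2 samples and between 50.7% and 52.7% in the others. This split does not follow the operation, and values within the 4 like samples, 2 per group, are given beside the results they touch. Set against the neuron label, 15 of 15 sensory neuron markers passed the filter. Markers of other cells were also present, with 6 of 6 satellite glia markers and 7 of 7 Schwann cell markers tested. The table holds no transcript lengths, so levels were compared between samples and not between genes.

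The ASIC genes and Piezo2 averaged higher after PRATA, Piezo1 averaged lower, and the P2X genes differed by less than the spread between samples. Asic1 was 1.68-fold higher, Asic3 was 1.54-fold higher and Piezo1 was at 0.462 times the sham level. By the quasi-likelihood test of edgeR, with p adjusted over all genes after Benjamini and Hochberg, 0 of the 10 genes and 0% of all genes passed an adjusted p of 0.05. With DESeq2 744 genes passed an adjusted p under 0.05, 7.26% of those it gave one. With limma voom with sample quality weights 1173 (7.86%) passed it, and with limma-trend 0. At an unadjusted p under 0.05, edgeR called 2734 of the 14919 genes (18.3%) and 3 of the 10 channel genes, Asic1, Asic3 and Piezo1. Upward calls took 8.19% of all genes and 2 of the 10, and downward calls 10.1% of all genes and 1 of the 10. The groups did not overlap for these same 3 genes, against 22.8% of all genes tested (11.6% with PRATA above sham and 11.2% with PRATA below it). The log2 fold change was above 0 for 9 of the 10 genes, beside 52% of all genes, with a median of 0.39 over the 10 and 0.02 over all genes tested. With 3 samples against 3, an exact permutation test of a single gene cannot give a p under 0.10.

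**Figure D1:**
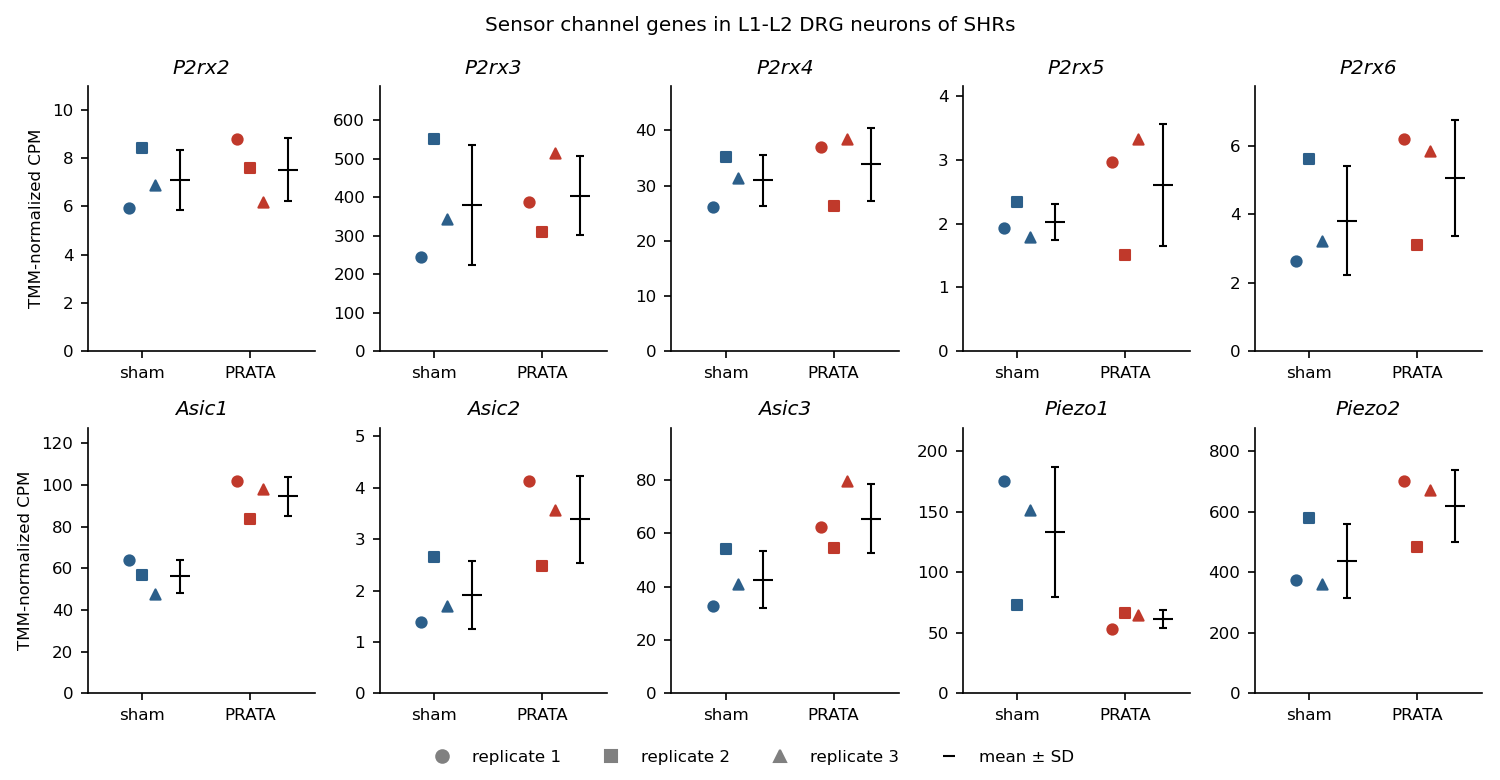
TMM-normalized CPM of each of the 10 channel genes (vertical axes from 0, a separate scale per gene) in the sham and PRATA samples. Symbols mark replicates 1 to 3, and the bar beside each group gives the mean ± SD (n = 3). For Asic1 the PRATA samples lie between 83.7 and 102 CPM and the sham samples between 47.9 and 63.9 CPM, while for P2rx3 the groups overlap.

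Among the acid sensors, Asic1 (ENSRNOG00000059765), which encodes an ASIC subunit, was at 102, 83.7 and 97.9 CPM in PRATA replicates 1, 2 and 3. In sham replicates 1, 2 and 3 it was at 63.9, 56.7 and 47.9 CPM. The lowest PRATA sample was above the highest sham sample, with a gap wider than the range within the sham group. PRATA samples averaged 94.5 ± 9.57 CPM and sham samples 56.2 ± 8.02 CPM (SD, n = 3 each). The log2 fold change was 0.75 (standard error 0.17, 95% interval 0.35 to 1.15, edgeR adjusted p = 0.156). The adjusted p fell to 0.0143 with DESeq2 and to 0.0330 with limma voom with sample quality weights, and it was between 0.0143 and 0.550 over 16 alternatives. Within the 4 like samples the log2 fold change was 0.82 (edgeR adjusted p = 0.232). Asic1 kept an unadjusted p under 0.05 in all 16 alternatives.

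Asic3 (ENSRNOG00000008380), the subunit most associated with sensory neurons, was at 62.5, 54.5 and 79.6 CPM in PRATA replicates 1, 2 and 3. The sham replicates 1, 2 and 3 had 32.8, 54.0 and 40.9 CPM. The groups only just separated, since PRATA replicate 2 and sham replicate 2 had nearly the same level. PRATA samples averaged 65.5 ± 12.8 CPM and sham samples 42.6 ± 10.7 CPM (SD, n = 3 each), a log2 fold change of 0.63 (standard error 0.24, 95% interval 0.08 to 1.17, edgeR adjusted p = 0.229). Within the 4 like samples the log2 fold change of Asic3 was 0.30 (edgeR adjusted p = 0.648), less than in all 6 samples. Asic3 was not past an unadjusted p of 0.05 there, with library size alone as the scaling, with the replicate block, or without PRATA replicate 1 (log2 fold change 0.63), PRATA replicate 3 (0.46), sham replicate 1 (0.44) or sham replicate 3 (0.61).

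Asic2 (ENSRNOG00000058308), a subunit that joins ASIC1 and ASIC3 in mixed channels, was counted with only 17 to 45 reads per sample. In PRATA replicates 1, 2 and 3 this came to 4.13, 2.47 and 3.56 CPM, and in sham replicates 1, 2 and 3 to 1.38, 2.65 and 1.70 CPM. PRATA replicate 2 lay below sham replicate 2, so the groups overlapped. The log2 fold change of 0.84 (standard error 0.42, 95% interval -0.11 to 1.80, edgeR adjusted p = 0.318) was the highest of the 10 genes and also among the least precise.

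The promoter windows of the 2 ASIC genes past the unadjusted threshold are shown because these 2 are the channel genes with a RefSeq promoter in which the groups did not overlap. They come from RefSeq on the rat build GRCr8, run 5′ to 3′ along the gene's strand from 250 bases before the start to 50 after it, and are given in lower case. Capitals mark 5 motifs searched on both strands, none of which overlapped another in these windows: the GC box GGGCGG, the CCAAT box CCAAT, the cAMP response element TGACGTCA, the AP-1 site TGANTCA and the E box CANNTG. The genome build of the count table is not given in the sources used here. The Asic1 window is chr7:132678457-132678756 on the plus strand and the Asic3 window chr4:11657318-11657617 on the minus strand.
Asic1: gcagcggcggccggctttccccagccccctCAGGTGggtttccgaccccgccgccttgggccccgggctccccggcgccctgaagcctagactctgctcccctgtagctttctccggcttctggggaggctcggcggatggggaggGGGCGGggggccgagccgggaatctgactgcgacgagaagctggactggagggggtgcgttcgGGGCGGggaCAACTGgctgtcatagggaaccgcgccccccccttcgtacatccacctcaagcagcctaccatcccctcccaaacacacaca
Asic3: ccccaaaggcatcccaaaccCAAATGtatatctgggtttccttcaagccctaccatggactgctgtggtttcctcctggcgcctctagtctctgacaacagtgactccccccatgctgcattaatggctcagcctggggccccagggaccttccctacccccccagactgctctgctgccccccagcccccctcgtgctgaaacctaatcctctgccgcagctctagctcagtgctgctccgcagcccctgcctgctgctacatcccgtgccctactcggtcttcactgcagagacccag
The Asic1 window held 2 GC boxes and 2 E boxes, with 69.7% of its bases G or C. The Asic3 window held 1 E box and no GC box, with 60.7% of its bases G or C. Of all 33469 RefSeq promoter windows, 33.1% held a GC box and 72.1% an E box, so both motifs are common and these matches are descriptions only.

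Among the mechanical sensors, Piezo1 (ENSRNOG00000056786) was the one channel gene lower after PRATA. It was at 53.2, 66.4 and 65.0 CPM in PRATA replicates 1, 2 and 3. In sham replicates 1, 2 and 3 it was at 175, 72.9 and 151 CPM. All 3 PRATA samples were close together, whereas sham replicate 2 lay just above them and far below the other sham samples. PRATA samples averaged 61.5 ± 7.28 CPM and sham samples 133 ± 53.6 CPM (SD, n = 3 each). The log2 fold change was -1.11 (standard error 0.31, 95% interval -1.82 to -0.40, edgeR adjusted p = 0.169). Without sham replicate 2 the log2 fold change was -1.40 and the edgeR adjusted p 0.0263. DESeq2 gave an adjusted p of 0.0155 and limma voom with sample quality weights one of 0.0342, and over 16 alternatives the adjusted p lay between 0.0155 and 0.550. Within the 4 like samples the log2 fold change of Piezo1 was -0.92 (edgeR adjusted p = 0.344), and the unadjusted p stayed under 0.05 in all 16 alternatives.

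Because Piezo1 is found in many non-neuronal cells, the markers of such cells were set beside it. The summed level of the 6 satellite glia markers was 447, 898 and 421 CPM in PRATA replicates 1, 2 and 3 and 1045, 542 and 869 CPM in sham replicates 1, 2 and 3. In the sham group replicate 2 was the lowest sample both in Piezo1 and in these markers. In the PRATA group replicate 2 was the highest sample both in Piezo1 (66.4 CPM) and in these markers. Its Piezo1 level lay below that of every sham sample. All 6 satellite glia markers averaged lower after PRATA (median log2 fold change -0.47). None passed an unadjusted p under 0.05, beside 10.1% of all genes tested that were lower at that threshold. The 6 fibroblast markers matched summed to between 329 and 1984 CPM after PRATA and between 913 and 1834 CPM in the sham samples. The 7 endothelial markers matched summed to between 69.1 and 147 CPM after PRATA and between 28.6 and 170 CPM in the sham samples. The 7 Schwann cell markers summed to between 774 and 1385 CPM after PRATA and between 582 and 780 CPM in the sham samples, and the 9 macrophage markers to between 21.3 and 64.8 CPM and between 19.1 and 49.4 CPM. In the fibroblast, endothelial, Schwann cell and macrophage lists the lowest sham sample was replicate 3, unlike in Piezo1. All of these summed levels overlapped between the groups, and no marker was at 0 in every sample. The part of other cells in the Piezo1 difference was not tested, and in these bulk samples fewer cells of a type cannot be told apart from less RNA per cell.

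**Figure D2:**
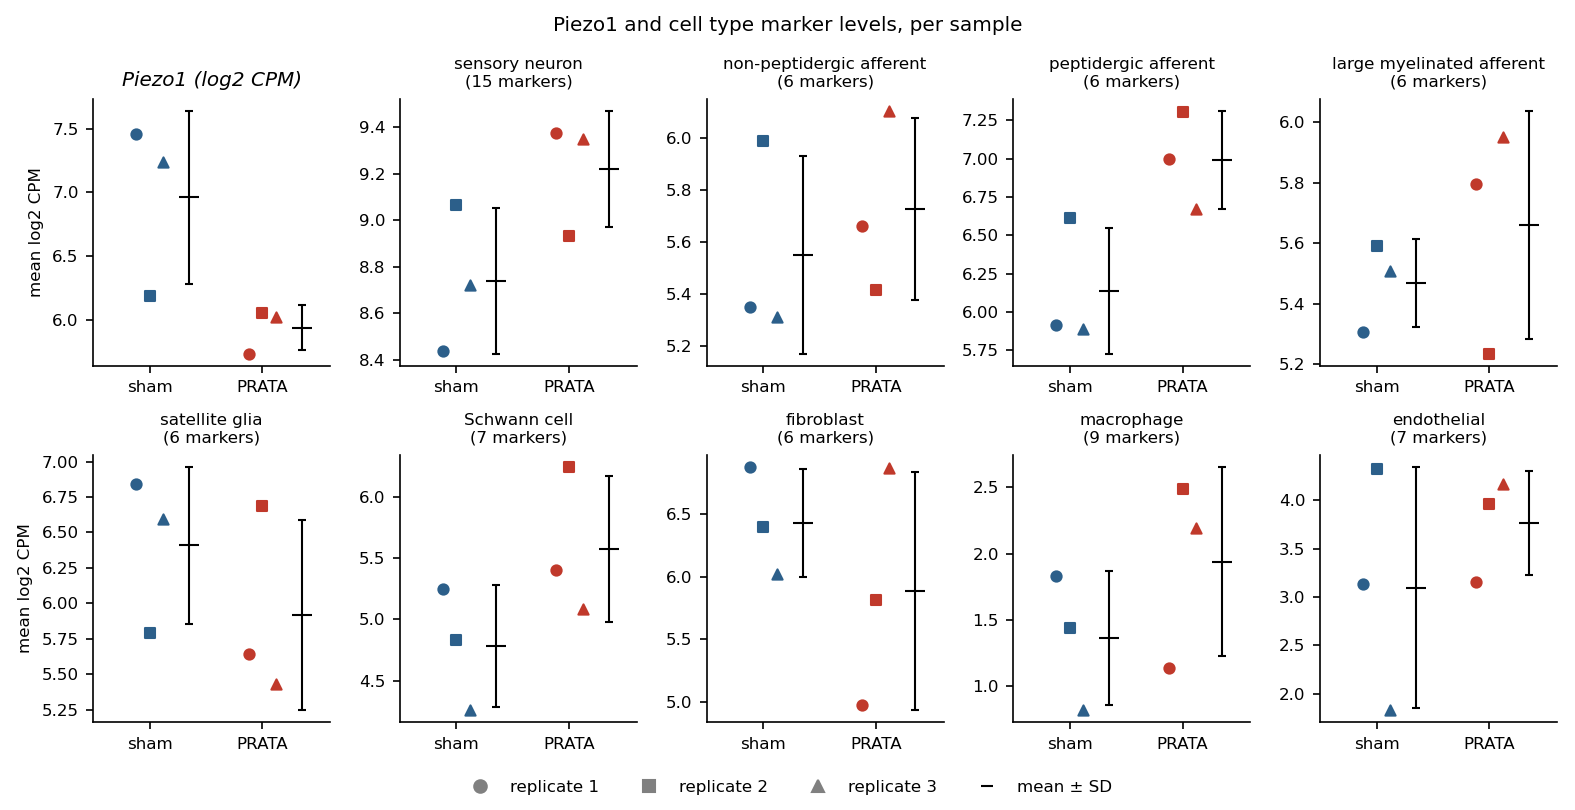
Log2 CPM of Piezo1 (first panel) and the mean log2 CPM of each cell type marker list (other panels, a separate vertical scale per panel) in the sham and PRATA samples. Symbols mark replicates 1 to 3 and bars the mean ± SD (n = 3). Sham replicate 2 is low in Piezo1 and in satellite glia markers. PRATA replicate 2 (6.69) lies above sham replicates 2 (5.79) and 3 (6.59) in satellite glia markers but below every sham sample in Piezo1. The peptidergic afferent list is the one marker list whose groups do not overlap.

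Piezo2 (ENSRNOG00000038784), the touch channel, was at 701, 483 and 671 CPM in PRATA replicates 1, 2 and 3. The sham replicates 1, 2 and 3 had 373, 580 and 361 CPM. Replicate 2 departed from the others in both groups, low after PRATA and high after the sham operation, and the groups overlapped. This order was not particular to Piezo2. The mean log2 CPM of the 15 sensory neuron markers was 9.38, 8.93 and 9.35 in PRATA replicates 1, 2 and 3. It was 8.44, 9.06 and 8.72 in sham replicates 1, 2 and 3. PRATA samples averaged 618 ± 118 CPM and sham samples 438 ± 123 CPM (SD, n = 3 each), a log2 fold change of 0.50 (standard error 0.26, 95% interval -0.11 to 1.11, edgeR adjusted p = 0.345). Without sham replicate 2 it was 0.75 (edgeR adjusted p = 0.0874), and within the 4 like samples 0.33 (edgeR adjusted p = 0.716).

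Among the ATP-gated channels, P2rx3 (ENSRNOG00000008552), the P2X subunit of small-diameter nociceptors, was at 387, 311 and 515 CPM in PRATA replicates 1, 2 and 3. In sham replicates 1, 2 and 3 it was at 244, 551 and 344 CPM. The highest and the lowest of the 6 values were both sham samples. PRATA samples averaged 404 ± 103 CPM and sham samples 380 ± 157 CPM (SD, n = 3 each), with a log2 fold change of 0.09 (standard error 0.33, edgeR adjusted p = 0.908). The 95% interval of the fold change ran from 0.630 to 1.80, so neither a moderate rise nor a moderate fall is outside it. The direction of P2rx3 turned when PRATA replicate 3 (-0.12) or sham replicate 1 (-0.17) was left out, and within the 4 like samples (-0.36, edgeR adjusted p = 0.658).

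Of the 2 P2rx3 windows that RefSeq gives, the one farther along the gene is shown because it held matches to 3 of the 5 motifs, while the other window held none. It lies on GRCr8 at chr3:90529260-90529559 on the minus strand, with capitals as above.
P2rx3: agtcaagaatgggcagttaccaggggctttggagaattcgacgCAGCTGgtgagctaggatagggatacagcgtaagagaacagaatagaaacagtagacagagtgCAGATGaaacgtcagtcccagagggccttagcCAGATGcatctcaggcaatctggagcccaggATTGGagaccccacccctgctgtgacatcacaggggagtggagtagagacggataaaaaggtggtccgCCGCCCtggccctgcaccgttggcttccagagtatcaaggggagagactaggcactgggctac
It held 1 GC box, 1 CCAAT box and 3 E boxes, and CCAAT boxes stood in 37.5% of all RefSeq promoter windows. No cAMP response element (1.83% of all windows) and no AP-1 site (7.33%) was found in any of the 9 windows of the 7 channel genes with a RefSeq promoter, which says only that these letters are not in the windows.

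P2rx2 (ENSRNOG00000037456), the partner of P2X3 in mixed channels, was at 8.78, 7.57 and 6.17 CPM in PRATA replicates 1, 2 and 3 and at 5.94, 8.43 and 6.90 CPM in sham replicates 1, 2 and 3. The groups overlapped over most of their range, with a fold change of 1.06 (95% interval 0.701 to 1.61, edgeR adjusted p = 0.889). For P2rx2 the log2 fold change of 0.09 turned to -0.056 without PRATA replicate 1 and to -0.049 without sham replicate 1. P2rx4 (ENSRNOG00000001300), a receptor also known from microglia, macrophages and endothelium, was at 36.9, 26.3 and 38.4 CPM in PRATA replicates 1, 2 and 3 and at 26.2, 35.3 and 31.5 CPM in sham replicates 1, 2 and 3. Its fold change of 1.10 had the narrowest interval of the P2X genes (95% interval 0.784 to 1.53, edgeR adjusted p = 0.773). For P2rx4 the log2 fold change of 0.13 turned to -0.089 within the 4 like samples (edgeR adjusted p = 0.926) and to -0.0017 without sham replicate 1. As for Piezo2, replicate 2 was the lowest PRATA sample and the highest sham sample.

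P2rx5 and P2rx6, subunits known for small or mixed-channel currents, were counted with 15 to 42 and 34 to 74 reads per sample. P2rx5 (ENSRNOG00000019208) lay between 1.51 and 3.32 CPM after PRATA and between 1.79 and 2.34 CPM in the sham samples, with a fold change of 1.29 (95% interval 0.651 to 2.55, edgeR adjusted p = 0.680). P2rx6 (ENSRNOG00000001873) lay between 3.11 and 6.20 CPM after PRATA and between 2.63 and 5.62 CPM in the sham samples, with a fold change of 1.34 (95% interval 0.692 to 2.60, edgeR adjusted p = 0.616). For both, PRATA replicate 2 was the low sample of its group and sham replicate 2 the high sample of its group. The intervals of all 5 P2X genes held 1 and reached above 1.5, so they leave room for a rise of that size. Their lower ends lay between 0.630 (P2rx3) and 0.784 (P2rx4), so they leave room for a fall as well.

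In the RefSeq gene table for GRCr8, 6 of the 10 genes overlap another protein-coding gene, and how the counting treated shared or opposite-strand reads is not given in the sources used here. P2rx3 meets Ssrp1, P2rx2 meets Lrcol1, P2rx4 meets Camkk2, P2rx6 meets Lrrc74b, and Piezo1 meets Ctu2. Asic2 spans Rpl35al3 and LOC134480834. The levels of these 6 genes are uncertain to that extent, whereas Asic1, Asic3, Piezo2 and P2rx5 overlap no coding gene there.

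Since markers of sensory neurons themselves averaged higher after PRATA, each channel gene was also expressed relative to them. All 15 sensory neuron markers averaged higher (median log2 fold change 0.44), and their mean overlapped between the groups. Of the 15, 2 (Tubb3 and Prph) were higher at an unadjusted p under 0.05, beside 8.19% of all genes tested. After the mean log2 CPM of the 15 markers was subtracted in each sample, the groups overlapped for Asic1 (log2 difference 0.27, exact permutation test, two-sided, p = 0.40) and Asic3 (0.15, exact permutation p = 0.40). Piezo2 differed by 0.03 (exact permutation p = 1.0) and P2rx3 by -0.34 (exact permutation p = 0.20).
The groups did not overlap for 4 of the 10 genes on this scale, beside 24.5% of all genes tested. All 3 PRATA samples were below all 3 sham samples for Piezo1 (-1.50), P2rx2 (-0.40) and P2rx4 (-0.36), beside 23.6% of all genes in that direction. For Asic2 (0.30) all 3 PRATA samples were above all 3 sham samples, beside 0.891% of all genes. Relative to Uchl1, Snap25 and Tubb3 alone the Asic2 groups overlapped (0.22, exact permutation p = 0.20). The separation was narrow for P2rx2, Piezo1 and Asic2: the nearest PRATA and sham samples, replicates 2 of each group, were at -5.98 and -5.96 for P2rx2, at -2.88 and -2.87 for Piezo1 and at -7.52 and -7.56 for Asic2. Each of these 4 had an exact permutation p of 0.10, the smallest the design allows, and an adjusted p of 0.25 over the 10 genes. P2rx5 differed by -0.20 and P2rx6 by -0.08, with overlapping groups. The same marker mean, higher on average after PRATA, was subtracted from every gene, which moved all differences down. The unequal shares of all genes in the 2 directions on this scale carry that shift. The channel levels and the marker mean come from the same libraries, and Asic2 rests on few reads.

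**Figure D3:**
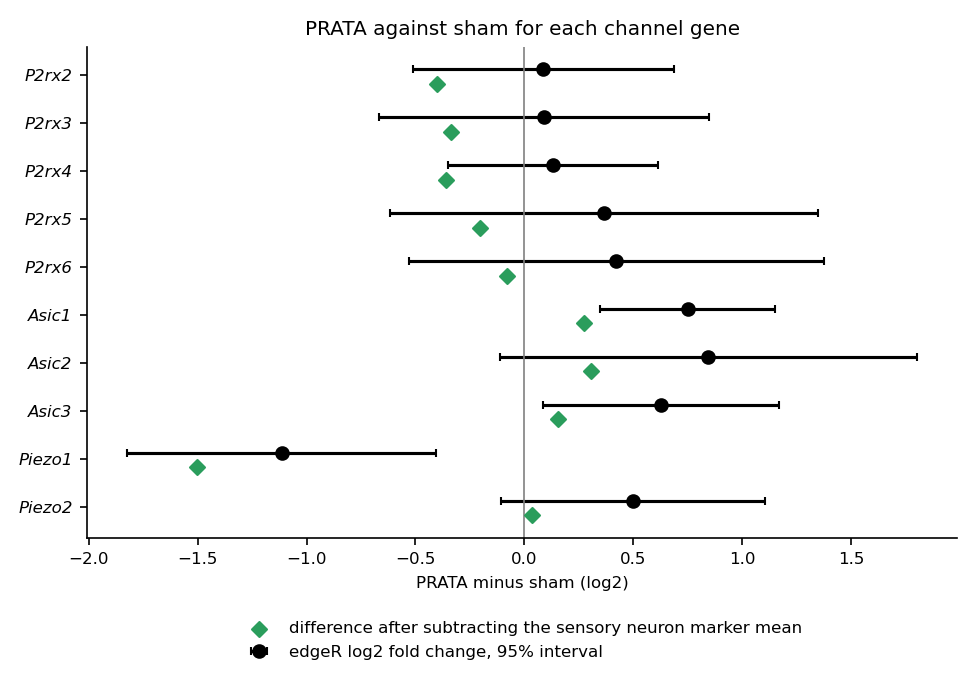
Difference between PRATA and sham on the log2 scale (horizontal axis) for each of the 10 channel genes. Black points give edgeR's log2 fold change with its 95% interval, and green diamonds the difference between group means after the mean log2 CPM of 15 sensory neuron markers was subtracted in each sample. The intervals of Asic1, Asic3 and Piezo1 lie to one side of 0. The diamonds of all 10 genes lie to the left of the black points. This follows from the subtraction, since the same marker mean, higher on average after PRATA, was taken from every gene.

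The balance between genes of one family was compared as the ratio of their read counts in each sample, in which library size cancels. The ratios are not corrected for transcript length, so only their change between samples can be read. Piezo1 reads were 7.59, 13.8 and 9.69% of Piezo2 reads in PRATA replicates 1, 2 and 3. In sham replicates 1, 2 and 3 they were 47.0, 12.6 and 41.9% of Piezo2 reads. Sham replicate 2 fell within the PRATA range, so the groups overlapped, and the log2 ratio differed by -1.54 (exact permutation test, two-sided, p = 0.20, adjusted p = 0.80 over 4 ratios). Without sham replicate 2 it differed by -2.14, and leaving out any other sample gave between -1.76 and -1.19. The log2 ratio of P2rx2 to P2rx3 differed by -0.06, that of Asic1 to Asic3 by 0.12 and that of Asic2 to Asic3 by 0.19, all with overlapping groups (exact permutation p of 0.80, 0.80 and 0.50). P2rx2 reads were between 1.20 and 2.45% of P2rx3 reads in all 6 samples. For Asic1 to Asic3 the sham samples spanned 105 to 195% and the PRATA samples 123 to 163%.

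**Figure D4:**
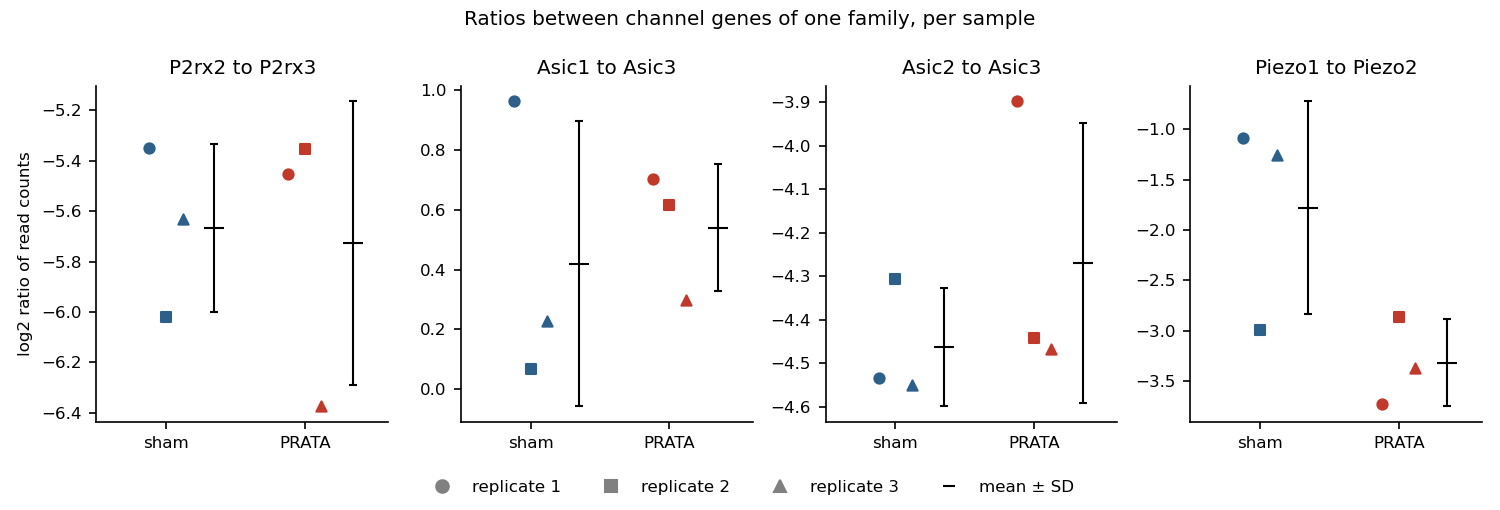
Log2 ratio of read counts between channel genes of one family (vertical axes, a separate scale per pair, 0.5 reads added to each gene) in the sham and PRATA samples. Symbols mark replicates 1 to 3 and bars the mean ± SD (n = 3). The groups overlap in all 4 panels, and in the Piezo1 to Piezo2 panel sham replicate 2 lies among the PRATA samples.

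Other genes of ATP signalling were examined in a list of 16 receptors, release channels and ATP-degrading enzymes, 12 of which were tested. The median log2 fold change of the 12 was 0.04. At an unadjusted p under 0.05, 2 were higher and 0 lower, beside 8.19% higher and 10.1% lower of all genes tested. The 2 higher genes were pannexins, large-pore channels, of which Panx1 is a known route for ATP release. Panx1 averaged 26.6 ± 2.58 CPM in PRATA and 18.5 ± 2.46 CPM in sham samples (SD, n = 3 each, log2 fold change 0.52, edgeR adjusted p = 0.215), and Panx2 at 44.4 ± 9.23 and 27.9 ± 4.19 CPM (log2 fold change 0.67, edgeR adjusted p = 0.190). The groups did not overlap for either pannexin, though Panx2 was at 33.8 CPM in the lowest PRATA sample and 32.8 CPM in the highest sham sample. Entpd3, an enzyme that degrades extracellular ATP, had overlapping groups (log2 fold change 0.45, edgeR adjusted p = 0.309). Of the remaining P2X genes, P2rx7 averaged 14.3 CPM after PRATA and 16.2 CPM after the sham operation with overlapping groups, and P2rx1 had at most 9 reads in a sample and was not tested.

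In the acid-sensing list, 7 of 12 genes were tested, with a median log2 fold change of 0.27. At an unadjusted p under 0.05, 1 was higher and 0 lower, beside 8.19% and 10.1% of all genes tested. The higher gene was Stoml1, a stomatin-like protein known to act on ASICs, with 64.8 ± 6.68 CPM in PRATA and 38.2 ± 9.84 CPM in sham samples (SD, n = 3 each, log2 fold change 0.76, edgeR adjusted p = 0.171), with groups that did not overlap. The acid-inhibited potassium channel gene Kcnk3 (log2 fold change 0.64, edgeR adjusted p = 0.321) and the proton receptor gene Gpr4 (-0.75, edgeR adjusted p = 0.337) had overlapping groups. Asic4 had at most 12 reads in a sample, and Asic5 had 1 read in all 6 samples together, so neither was tested.
In the mechanical-sensing list, 10 of 14 genes were tested, with a median log2 fold change of 0.35. At an unadjusted p under 0.05, 2 were higher and 0 lower, beside 8.19% and 10.1% of all genes tested. Kcnk10, a stretch-activated potassium channel gene, was at 13.9, 11.6 and 13.5 CPM in PRATA replicates 1, 2 and 3 and at 6.91, 6.71 and 7.75 CPM in sham replicates 1, 2 and 3. The groups were well apart, with a log2 fold change of 0.86 (standard error 0.21, edgeR adjusted p = 0.158). Beside Kcnk10, the other gene higher at an unadjusted p under 0.05 was Tmem63b (log2 fold change 0.43, edgeR adjusted p = 0.268), though its groups overlapped. Tmem63c (0.42, edgeR adjusted p = 0.303) did not pass that threshold and also had overlapping groups. Both encode osmotically gated channels. Stoml3, a modulator of touch channels, had at most 10 reads in a sample.

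Among afferent subtypes, the median log2 fold change of the 6 peptidergic markers was 0.81. At an unadjusted p under 0.05, 3 of them were higher, Adcyap1 and Calca included. The 6 non-peptidergic markers, which mark the neurons where P2rx3 is best known, had a median of 0.15 with 0 at an unadjusted p under 0.05 in edgeR. The 6 large myelinated afferent markers tested had a median of 0.45, with Ntrk3 higher and Ntrk2 lower at an unadjusted p under 0.05. The medians of the Schwann cell, endothelial, macrophage and fibroblast lists were 0.80, 0.32, 0.71 and -0.49, with 2 (Prx and Pllp), 1 (Vwf), 0 and 0 genes at an unadjusted p under 0.05, all higher after PRATA. Of all genes tested, 8.19% were higher and 10.1% lower at an unadjusted p under 0.05. No gene of these lists had an adjusted p under 0.05 in edgeR.

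The genes whose log2 CPM followed that of P2rx3 and Piezo2 most closely over the 6 samples were sought among 8580 protein-coding genes with a mean of at least 10 CPM. For P2rx3 these were Rgs4, Mindy3, Pianp, Serpinb1a and Khk, with Pearson's r between 0.988 and 0.997. For Piezo2 they were Prune2, Dzank1, Rit2, B3gnt2 and Fgf1, with r between 0.996 and 0.998. These are the closest of many genes over few samples of the same libraries, and r is given as a description of likeness only.

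**Figure D5:**
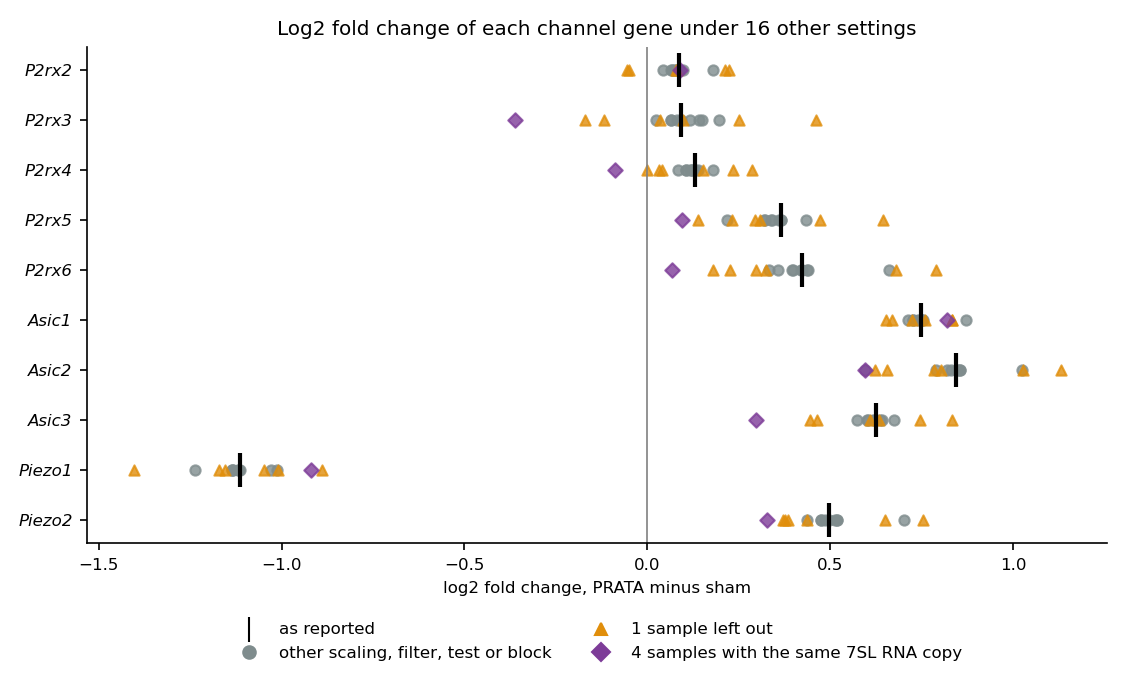
Log2 fold change between PRATA and sham (horizontal axis) of each channel gene as reported (black bar) and under 16 other settings: grey circles for another scaling, filter, test or the replicate block, orange triangles for 1 sample left out, purple diamonds for the 4 samples with the same 7SL RNA copy. Asic1 lies between 0.65 and 0.87 and Piezo1 between -1.40 and -0.89 in all settings, whereas P2rx2, P2rx3 and P2rx4 have settings on both sides of 0.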

How the data were processed

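RNA of L1-L2 DRG neurons was sequenced in 3 PRATA and 3 sham samples of SHRs. The deposited values are raw counts of reads per gene, made by the authors without normalization. The submitters' processing notes name STAR 2.7.3a, RSEM and DESeq2, whereas the study's methods name HISAT2, StringTie and Cuffdiff. The step that made the counts, the genome build, the annotation release, the strand setting and the handling of multi-mapped reads are not given in the sources used here. All columns of sample values were used.

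The tests ran under R 4.3.3, with DESeq2 1.42.0 and limma 3.58.1 as alternatives to edgeR 4.0.16. In edgeR, filterByExpr (minimum count of 10, minimum total of 15) chose the genes, TMM set the scaling, and a two-sided quasi-likelihood test compared the groups with no covariate. The p-values of all genes tested were adjusted after Benjamini and Hochberg. Values relative to markers (log2 CPM with a prior count of 2) and log2 ratios (0.5 added to each count) were compared by an exact permutation test in scipy 1.17.1. The total counts limit genes of low level, and floors of 3 counts cover counting error only.

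The members and lists were chosen with earlier results of these data known. Named genes were the 10 channel genes, the genes with the smallest p in each companion list (up to 3) and the 5 genes most like P2rx3 and Piezo2. P2rx1, P2rx7, Asic4, Asic5 and Stoml3 were named after their values were seen. Of the genes on the lists, 3 were not found in the table by name. One list gene is not reported here by name. Alternatives covered scaling, filters, other tests, the replicate block, samples left out and the 4 samples with the same 7SL RNA copy (at least 25% of reads on the second copy). The fits were tested on simulated data.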

Additional observations from a re-analysis of the deposited data

How the results depend on the processing

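Of 160 log2 fold changes of the 10 channel genes under 16 alternatives, 148 kept their direction and their side of an adjusted p of 0.05, 5 passed it (Asic1 and Piezo1 with DESeq2 and with voom quality weights, and Piezo1 without sham replicate 2) and 7 turned direction. DESeq2 gave no adjusted p for P2rx5, P2rx6 and Asic2, which are counted among the 148 as not past 0.05. At an adjusted p under 0.05, DESeq2 called 744 genes, 7.26% of those it gave an adjusted p, and 2 of the channel genes. Voom with quality weights called 1173 genes (7.86%) and 2 of the channel genes. The 4 samples with the same 7SL RNA copy gave 13 genes (0.0878%) and 0 channel genes, against 0 and 0 as reported. At an unadjusted p under 0.05, voom with quality weights called 4606 genes (30.9%) and 5 of the 10 channel genes. Leaving out 1 sample at a time, between 0 and 721 genes (4.67%) and between 0 and 1 channel genes passed an adjusted p under 0.05. The highest counts came without sham replicate 2. Between 1406 genes (8.91%, without PRATA replicate 1) and 4254 genes (27.6%, without sham replicate 2) passed an unadjusted p under 0.05. Without sham replicate 3 there were 1471 (9.33%). Between 2 and 5 of the channel genes passed an unadjusted p under 0.05, with 5 without sham replicate 2.

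The log2 fold change of P2rx2 ran from -0.056 to 0.22 with 1 sample left out, below 0 without PRATA replicate 1 or sham replicate 1. That of P2rx3 ran from -0.17 to 0.46 and that of P2rx4 from -0.0017 (without sham replicate 1) to 0.29, and within the 4 like samples they were -0.36 and -0.089. Relative to neuron markers, 4 channel genes did not overlap between the groups, and 3, without Asic2, when Uchl1, Snap25 and Tubb3 alone were used. On that scale P2rx6 ran from -0.18 to 0.080, above 0 without PRATA replicate 2 or sham replicate 2, and Piezo2 from -0.079 (without sham replicate 3) to 0.093, with -0.049 relative to Uchl1, Snap25 and Tubb3 alone. The log2 ratio difference ran from -0.25 to 0.26 for P2rx2 to P2rx3, above 0 without PRATA replicate 3 or sham replicate 1, and from -0.055 (without sham replicate 2) to 0.39 for Asic1 to Asic3. For Piezo1 to Piezo2 it ran from -2.14 (without sham replicate 2) to -1.19. The cause was not tested. When replicate numbers entered as a block, 1528 genes (10.2%) and 2 of the channel genes passed an unadjusted p under 0.05 and 0 an adjusted p under 0.05. The numbers gave no sign of pairing, since the deviations of same-numbered samples correlated across genes with a mean r of -0.25 and 0 of 6 samples correlated best with their own number.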
